A study of Bos taurus with 2 samples.

Results

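The mir-29 family was described here by its 3 members in the table of known bovine miRNAs, mir-29a, mir-29b and mir-29c, out of 283 unique known miRNAs and 884 unique miRNAs in all. Members were taken by name and both arms were looked for, but the table of known miRNAs lists only the 3p arm of each. Small RNA had been sequenced from the mammary gland (MG) of 1 lactating cow (lactation library) and 1 non-lactating cow (non-lactation library). The lactating cow was aged 6 years and 2 months in milk, and the non-lactating cow was aged 4 years and not pregnant. Both animals were Holstein dairy cows, and stage, age and animal cannot be told apart with 1 library per group. The deposited tables give, per miRNA and library, the reads of the main (most abundant) sequence, the reads summed over isomiRs (length and sequence variants of one miRNA) and how many different isomiRs were seen, called kinds below.

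miRNAs are cut from hairpin precursors, and bases 2 to 8 of the mature RNA, the seed, set most of the pairing with target mRNAs. Members of a family share the seed and can therefore act on the same sites. The mir-29 family is known for lowering mRNAs of the extracellular matrix, among them collagens, elastin and fibrillin, in mouse and human fibroblasts. In human cancer cells it also lowers DNMT3A and DNMT3B, the enzymes that place new methyl groups on DNA, and MCL1, which protects cells from death. The mammary gland rebuilds its matrix and its epithelium between lactation and the non-lactating state, which is the setting of the comparison between both libraries.

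The mature sequences are shown because the members differ by few bases, which decides how reads can be assigned to them. They are printed 5′ to 3′ with the seed in capitals.
mir-29a-3p: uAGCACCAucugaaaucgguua
mir-29b-3p: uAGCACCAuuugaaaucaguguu
mir-29c-3p: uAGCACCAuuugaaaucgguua
All 3 carried the seed AGCACCA, and no other entry among the 884 did. Between mir-29a-3p and mir-29c-3p, both 22 nt long, the only substitution was C10U, counted from the 5′ end with the base of mir-29a-3p first. The sequences of mir-29b-3p, which has 23 nt, and mir-29c-3p were identical over their first 17 bases, and those of mir-29a-3p and mir-29b-3p over their first 9.

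The hairpins lie in clusters on chromosomes 4 and 16 (build BTA 4.0, positions as listed by the authors). The pre-miRNA of mir-29a is listed at chr4:97826811-97826874 on the minus strand, that of mir-29b at chr16:73886657-73886737 on the plus strand and that of mir-29c at chr16:73887217-73887304 on the plus strand. The starts of the pre-miRNAs of mir-29b and mir-29c were 560 bp apart. The hairpin sequences, given in the table of candidates predicted from the genome (prefix CN), are shown with the mature member in capitals, since one mature sequence stands in more than 1 of them.
mir-29a hairpin, chromosome 4: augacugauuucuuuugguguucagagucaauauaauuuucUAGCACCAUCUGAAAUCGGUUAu
mir-29b hairpin, chromosome 16: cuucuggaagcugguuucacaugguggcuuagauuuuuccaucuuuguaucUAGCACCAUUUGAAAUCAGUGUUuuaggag
mir-29c hairpin, chromosome 16: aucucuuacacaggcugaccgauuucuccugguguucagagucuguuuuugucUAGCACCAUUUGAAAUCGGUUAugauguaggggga
CN-445 hairpin, chromosome 4: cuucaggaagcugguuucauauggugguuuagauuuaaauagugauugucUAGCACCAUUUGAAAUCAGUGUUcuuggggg
The CN-445 hairpin, at chr4:97827186-97827266 on the minus strand and 375 bp by start from that of mir-29a, holds the whole mature sequence of mir-29b-3p. Reads of mir-29b-3p from chromosome 4 and from chromosome 16 can therefore not be told apart in these counts. A further position is listed for mir-29c at chr16:73970390-73970477, 83.2 kb away by start, with an 18 nt sequence that is the start of mir-29c-3p and no reads of its own. Its hairpin sequence was not used here, so whether it holds the whole of mir-29c-3p was not checked. If it does, reads of mir-29c-3p may also come from it and could not be told apart. RefSeq (ARS-UCD2.0, used for names and gene order alone) has MIR29A and MIR29B-1 on chromosome 4 between KLF14 and MKLN1, inside the span of LOC107131356. On chromosome 16 it has MIR29B-2 and MIR29C between CD34 and CD46, in the span of no other gene, and MIR29E and MIR29D past CD46, inside the span of LOC518224.

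The most abundant sequences of all 884 miRNAs held 5745961 reads in lactating MG and 7879028 reads in non-lactating MG. RPM are reads of the most abundant sequence per 1000000 clean reads of the library, and a ratio is RPM in lactating MG over RPM in non-lactating MG. Intervals of ratios are exact at the 95% level (Clopper-Pearson, given the sum of reads over both libraries) and cover counting error alone, as copies made by PCR are no independent molecules. Fisher's exact test (two-sided, Bonferroni over 883 miRNAs with a value in both libraries) compares these 2 libraries and not the conditions, and no difference has a replicate check.

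The family as a whole was lower in lactating MG. Of its members, mir-29a-3p and mir-29b-3p were lower in lactating MG while mir-29c-3p was higher. The summed family had 192618 reads in lactating MG and 583299 reads in non-lactating MG, or 16099 RPM and 36529 RPM, a ratio of 0.441 (0.438 to 0.443). It held 3.42% of the reads of known miRNAs in lactating MG (exact interval 3.40% to 3.43%) and 7.62% in non-lactating MG (7.60% to 7.64%).

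mir-29a-3p, the abundant member, had 162882 reads (13613 RPM) in lactating MG and 551278 reads (34524 RPM) in non-lactating MG. Its ratio was 0.394 (0.392 to 0.397), so it was 2.54-fold lower in lactating MG (2.52 to 2.55). The loss of 20910 RPM was second among the 283 known miRNAs, after that of mir-26a-5p, which lost 33074 RPM. By reads mir-29a-3p ranked 9 among known miRNAs in lactating MG and 4 in non-lactating MG.

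mir-29b-3p, the scarce member, had 3103 reads (259 RPM) in lactating MG and 6684 reads (419 RPM) in non-lactating MG. Its ratio was 0.620 (0.594 to 0.647), with an adjusted p of 4.35e-110 by Fisher's exact test. It ranked 59 in lactating MG and 50 in non-lactating MG.

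mir-29c-3p had 26633 reads (2226 RPM) in lactating MG and 25337 reads (1587 RPM) in non-lactating MG. Its ratio was 1.40 (1.38 to 1.43), the opposite direction to its chromosome 16 neighbour mir-29b-3p. It ranked 26 in lactating MG and 28 in non-lactating MG.

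All 3 members passed Fisher's exact test. Over all 883 miRNAs tested, 96 (10.9%) were called lower in lactating MG and 154 (17.4%) higher. Among the 273 miRNAs with at least 100 summed reads, to which the members belong, 87 (31.9%) were called lower and 115 (42.1%) higher, so a call as such was common at the depth of the members. A ratio at least 2-fold lower was less common, at 62 of these 273 (22.7%), and mir-29a-3p was among the 62. The median log2 ratio of the 273 was 0.24. Counted from the lowest of the 273 ratios, mir-29a-3p stood at place 45, mir-29b-3p at 74 and mir-29c-3p at 161, so mir-29c-3p lay near the middle of all miRNAs of this depth.

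**Figure D1:**
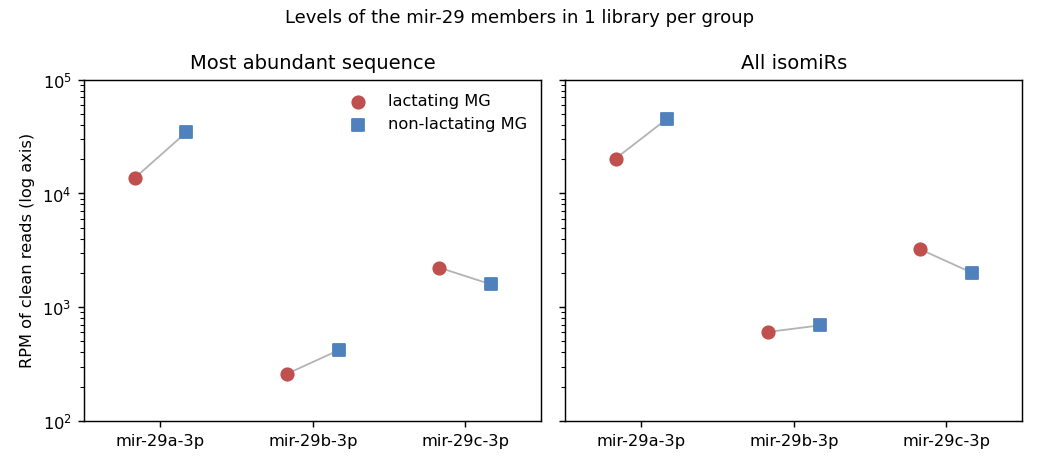
RPM (log axis) of the mir-29 members in lactating MG (circles) and non-lactating MG (squares), for the most abundant sequence (left) and all isomiRs (right), with 1 library per group and so no error bars between animals. By the most abundant sequence mir-29a-3p had 13613 RPM in lactating MG and 34524 RPM in non-lactating MG, whereas mir-29c-3p had 2226 RPM and 1587 RPM.

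Within each library the order was mir-29a-3p, mir-29c-3p, mir-29b-3p, and no neighbours in this order lay within counting error of each other. mir-29a-3p had 6.12 times the reads of mir-29c-3p in lactating MG (6.04 to 6.20) and 21.8 times in non-lactating MG (21.5 to 22.03). mir-29c-3p had 8.58 times the reads of mir-29b-3p in lactating MG (8.27 to 8.91) and 3.79 times in non-lactating MG (3.69 to 3.89). These ratios set unlike sequences side by side and carry any difference in how well each was ligated and amplified.

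The make-up of the family therefore differed between the libraries. mir-29a-3p held 84.6% of the family reads in lactating MG (84.4% to 84.7%) and 94.5% in non-lactating MG (94.5% to 94.6%). mir-29c-3p held 13.8% in lactating MG (13.7% to 13.98%) and 4.34% in non-lactating MG (4.29% to 4.40%). mir-29b-3p held 1.61% in lactating MG (1.56% to 1.67%) and 1.15% in non-lactating MG (1.12% to 1.17%). The share of mir-29a-3p was thus lower in lactating MG and the shares of both other members were higher, most of all in points that of mir-29c-3p.

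Ratios between members need no library total, so scaling does not enter them, and they set both libraries side by side for each pair. The reads of mir-29c-3p per read of mir-29a-3p were 0.164 in lactating MG and 0.0460 in non-lactating MG, which is 3.56 times higher (exact interval of the odds ratio 3.49 to 3.62). For mir-29b-3p per read of mir-29a-3p they were 0.0191 in lactating MG and 0.0121 in non-lactating MG, 1.57 times higher (1.50 to 1.64). For mir-29b-3p per read of mir-29c-3p they were 0.117 in lactating MG and 0.264 in non-lactating MG, a ratio of 0.442 (0.422 to 0.463). Each interval, which covers counting error alone, lay apart from 1, so no pair of members kept the same ratio in these 2 libraries. mir-29c-3p had more reads in lactating MG, where mir-29a-3p had fewer. A read of mir-29a-3p with a wrong base at position 10 can carry the sequence of mir-29c-3p. The part of such reads in mir-29c-3p was not tested in either library.

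mir-29b and mir-29c are listed on one strand 560 bp apart, and other neighbours give a scale for their difference. Among the 98 pairs of known miRNAs that lie within 10 kb on one strand, each with at least 100 summed reads and reads in both libraries, the median difference between the ratios of a pair was 1.72-fold. For mir-29b-3p and mir-29c-3p it was 2.26-fold, and 28 of the 98 pairs, this one included, differed by at least as much. Reads of mir-29b-3p can also come from chromosome 4, as described above, so the pair is not a clean comparison of neighbours.

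**Figure D2:**
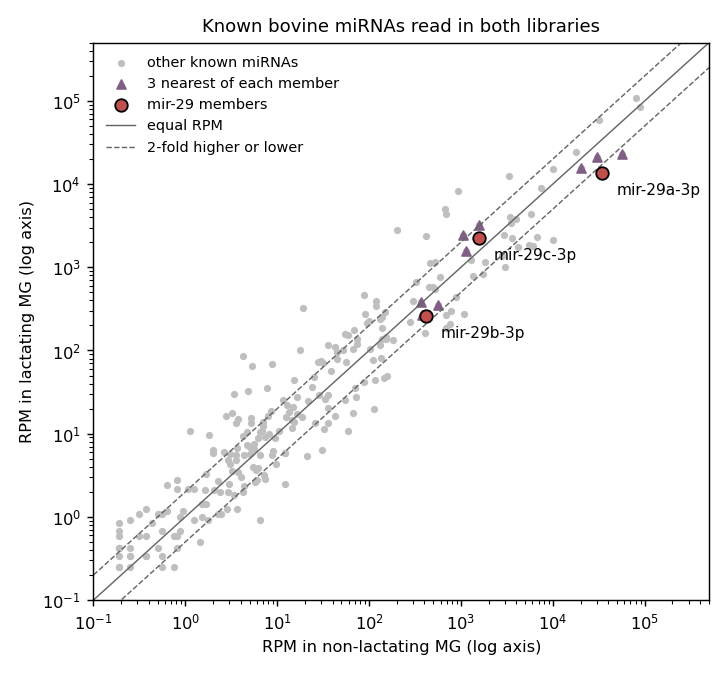
Known bovine miRNAs with reads in both libraries, by RPM in lactating MG (vertical, log axis) and in non-lactating MG (horizontal, log axis), with the mir-29 members as large circles and the 3 miRNAs nearest in level to each member as triangles. mir-29a-3p lies below the dashed line of a 2-fold lower level at a ratio of 0.394, mir-29b-3p at 0.620 lies between the lines and mir-29c-3p at 1.40 lies above the line of equal RPM.

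All isomiR reads gave the same directions with smaller losses and a larger gain. mir-29a-3p had 242405 isomiR reads in lactating MG and 727610 in non-lactating MG, a ratio of 0.445 (0.443 to 0.447). mir-29b-3p had 7246 in lactating MG and 11043 in non-lactating MG, a ratio of 0.876 (0.850 to 0.902). mir-29c-3p had 38561 in lactating MG and 32012 in non-lactating MG, a ratio of 1.61 (1.58 to 1.63). The loss of mir-29b-3p thus shrank to a small one once its variants were counted.

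The isomiRs other than the most abundant sequence had a higher ratio than that sequence in each member. For mir-29a-3p they had 79523 reads in lactating MG and 176332 in non-lactating MG, a ratio of 0.602 (0.597 to 0.607). For mir-29b-3p they had 4143 reads in lactating MG and 4359 in non-lactating MG, a ratio of 1.27 (1.22 to 1.32), which is the opposite direction to its most abundant sequence. For mir-29c-3p they had 11928 reads in lactating MG and 6675 in non-lactating MG, a ratio of 2.38 (2.31 to 2.46). Of 176 known miRNAs with at least 100 isomiR reads in each library, 14 (7.95%) had, as mir-29b-3p did, a lower RPM of the most abundant sequence and a higher RPM of the other isomiRs in lactating MG. These 14 were among the 75 of the 176 whose most abundant sequence was lower by RPM, the only ones that can have this combination.

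**Figure D3:**
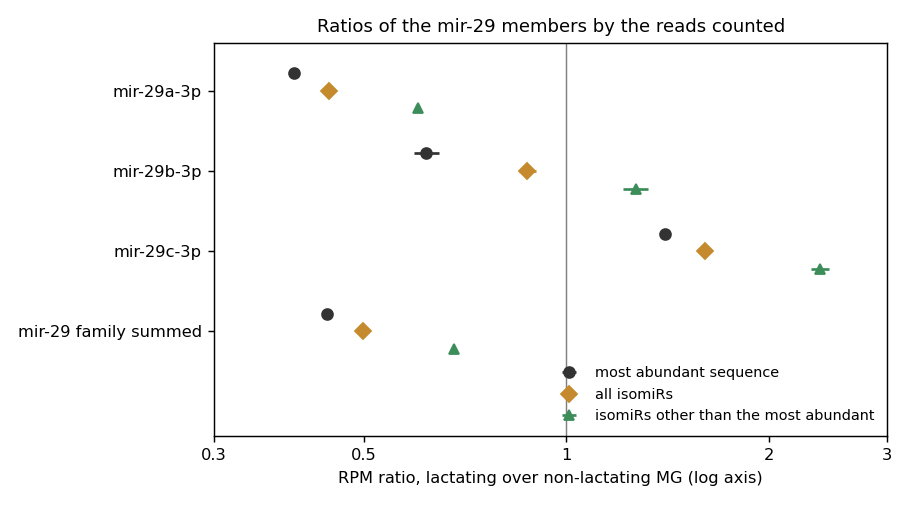
RPM ratios, lactating over non-lactating MG (log axis), of the mir-29 members and of their sum, for the most abundant sequence (circles), all isomiRs (diamonds) and the isomiRs other than the most abundant (triangles), with exact 95% intervals of counting error, some smaller than the symbols. For mir-29b-3p the ratios were 0.620, 0.876 and 1.27, so its direction turned with the reads counted.

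The share of its isomiR reads that the most abundant sequence held was lower in lactating MG in each member, which uses no library total. For mir-29a-3p it was 67.2% in lactating MG (67.0% to 67.4%) and 75.8% in non-lactating MG (75.7% to 75.9%). For mir-29b-3p it was 42.8% in lactating MG (41.7% to 44.0%) and 60.5% in non-lactating MG (59.6% to 61.4%). For mir-29c-3p it was 69.1% in lactating MG (68.6% to 69.5%) and 79.1% in non-lactating MG (78.7% to 79.6%).

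Fisher's exact test called this share lower in lactating MG for all 3 members, with an adjusted p of 7.01e-120 for mir-29b-3p and 2.16e-201 for mir-29c-3p (Bonferroni over 176 known miRNAs). The same test called it lower for 42 of the 176 known miRNAs (23.9%) and higher for 35. The median share over the 176 was 45.0% in lactating MG and 45.2% in non-lactating MG, and the median difference was -0.53 points. The differences of the members were -17.7 points for mir-29b-3p, -10.1 points for mir-29c-3p and -8.57 points for mir-29a-3p, at places 8, 20 and 26 of 176 from the lowest. The shares of the members were above the median in both libraries, apart from mir-29b-3p in lactating MG at 42.8%, and each difference was below the median difference.

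**Figure D4:**
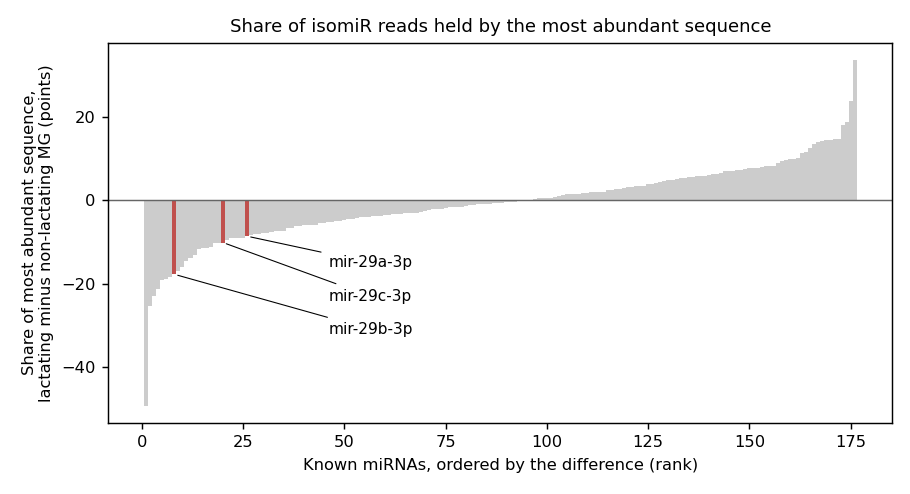
Difference in the share of isomiR reads held by the most abundant sequence, lactating minus non-lactating MG in percentage points, for 176 known miRNAs ordered by it, with the mir-29 members as dark bars. mir-29b-3p at -17.7, mir-29c-3p at -10.1 and mir-29a-3p at -8.57 points all stand in the lower end, while the median is -0.53 points.

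The number of kinds did not follow the reads in each member. mir-29a-3p had 245 kinds in lactating MG and 281 in non-lactating MG, with 989 and 2589 isomiR reads per kind. mir-29b-3p had 67 kinds in lactating MG and 60 in non-lactating MG although its isomiR reads were fewer in lactating MG. This combination was found in 34 of the 176 known miRNAs, of which 99 had fewer isomiR reads in lactating MG. mir-29c-3p had 128 kinds in lactating MG and 85 in non-lactating MG. More kinds in lactating MG were found for 103 of the 176 known miRNAs (58.5%), so the direction for mir-29b-3p and mir-29c-3p was that of the majority. The lengths and bases of single isomiRs were not analysed here.

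The 5p arms of the hairpins, usually the degraded strand, are listed among the candidates and were matched by identical pre-miRNA positions. They are shown with bases 2 to 8 in capitals, because their seeds differ from that of the 3p arm and from one another.
5p arm of mir-29a (CN-444-1-5p): aCUGAUUUcuuuugguguuca
5p arm of mir-29b (CN-394-5p): cUGGUUUCacaugguggcuuaga
5p arm of mir-29c (CN-395-5p): aCCGAUUUcuccugguguucaga
The minor arm held 0.0109% of the reads of both arms, summed over the libraries, for mir-29a, 0.518% for mir-29b and 0.0462% for mir-29c, against a median of 3.10% over the 143 hairpins with both arms listed.

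The 5p reads per 10000 3p reads were higher in lactating MG for mir-29b and lower for mir-29c. The 3p reads of mir-29b, in these values and in its minor arm share, pool the chromosome 16 and chromosome 4 hairpins, whereas its listed 5p sequence is that of chromosome 16, so they are not values of a single hairpin. The 5p arm of mir-29b had 37 reads in lactating MG and 14 in non-lactating MG, or 119 (83.8 to 165) and 20.9 (11.4 to 35.2) per 10000 3p reads. The odds ratio was 5.69 (3.0 to 11.4) with an adjusted p of 4.13e-07 by Fisher's exact test (Bonferroni over 143 hairpins). The 5p arm of mir-29c was listed at 0 reads in lactating MG and had 24 in non-lactating MG. This is 0 per 10000 3p reads in lactating MG (exact interval up to 1.39) and 9.47 (6.07 to 14.1) in non-lactating MG. With 3 reads, the lowest value listed above 0, in place of the 0, it would be 1.13 per 10000 in lactating MG. The 5p to 3p ratio would then be 8.41-fold lower there. This value has no interval and is no bound, as it leaves out counting error. Fisher's exact test, which took the listed 0, gave an adjusted p of 4.68e-06.

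The 5p arm of mir-29a had 30 reads in lactating MG and 48 in non-lactating MG, or 1.84 (1.24 to 2.63) and 0.871 (0.642 to 1.15) per 10000 3p reads. Its odds ratio of 2.12 (1.29 to 3.41) did not pass Fisher's exact test (adjusted p = 0.251). By all isomiR reads, 92 in lactating MG and 48 in non-lactating MG, the odds ratio was 5.75 (4.02 to 8.34) and passed. In non-lactating MG these 48 equal the reads of the most abundant sequence, so no other isomiR reads were counted there. The isomiR columns of the candidates were read against their labelled order, as described below. Over the 143 hairpins, 14 (9.79%) were called with more 5p reads per 3p read in lactating MG and 3 (2.10%) with fewer, the hairpin of mir-29b being one of the 14 and that of mir-29c one of the 3.

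By RPM the 5p arm of mir-29b was 3.53-fold higher in lactating MG (1.86 to 7.06, adjusted p = 0.0217 by Fisher's exact test), a call that ended with TMM factors (2.94-fold, adjusted p = 0.317 by Fisher's exact test). The 5p arm of mir-29c was 5.99-fold lower in lactating MG by its most abundant sequence, with 3 reads in place of the 0 and no interval. By all isomiR reads it had 0 in lactating MG and 138 in non-lactating MG, 34.5-fold lower with 3 reads in place of the 0. That 3 is the lowest value listed for most abundant sequences, so 34.5-fold is no bound for summed isomiR reads. The 3p partner of this arm, mir-29c-3p, was higher in lactating MG, so the entries listed for the arms of this hairpin went in opposite directions. Reads of mir-29c-3p may include those of the other listed position.

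**Figure D5:**
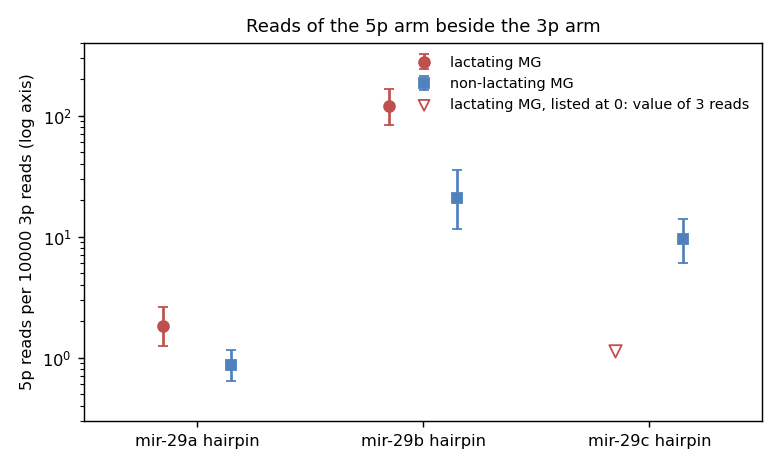
Reads of the 5p arm per 10000 reads of the 3p arm (log axis) for the mir-29a, mir-29b and mir-29c hairpins in lactating MG (circles) and non-lactating MG (squares), with exact 95% intervals of counting error. The open triangle marks the value of 1.13 that 3 reads give for the mir-29c hairpin in lactating MG, where the 5p arm was listed at 0, and the mir-29b hairpin stands at 119 in lactating MG and 20.9 in non-lactating MG.

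The CN-445 hairpin on chromosome 4, which holds the sequence of mir-29b-3p, has an entry of its own. Its listed entry is a 17 nt sequence that ends directly before the mature mir-29b-3p, with 6 reads in lactating MG and 6 in non-lactating MG. The stretches of both mir-29b hairpins that match the 5p arm differ at 2 of 23 bases, shown in capitals.
chromosome 16 hairpin: cugguuucaCaugguggCuuaga
chromosome 4 hairpin: cugguuucaUaugguggUuuaga
The chromosome 16 sequence is that of CN-394-5p, and no entry lists the chromosome 4 sequence as its most abundant one. The 5p reads given above for mir-29b are thus those of the chromosome 16 hairpin as far as the listed sequence tells.

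The known miRNAs nearest in level to each member were named by distance in log2 RPM over both libraries, among 248 known miRNAs with reads in both. Nearest to mir-29a-3p were let-7c-5p, a let-7 member, at a distance of 0.68, then mir-21-5p at 0.77 and mir-26a-5p at 1.03. mir-26a-5p had 23021 RPM in lactating MG and 56095 RPM in non-lactating MG, so it stood higher than mir-29a-3p in both. Nearest to mir-29b-3p was mir-195-5p of the mir-15/16 family, at 0.17, with 267 RPM in lactating MG and 375 RPM in non-lactating MG, followed by mir-192-5p at 0.59 and mir-16a-5p at 0.61. Nearest to mir-29c-3p were mir-24-3p at 0.55, mir-143-3p at 0.61 and mir-30d-5p at 0.70. No member was among the nearest of another, which follows from how far apart their levels lay.

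Other miRNAs known to act on the same kinds of targets were not all lower with mir-29a-3p. Of 4 miRNAs reported to lower DNA methyltransferases in human or mouse cells (mir-148a, mir-148b, mir-152 and mir-143), 4 were called higher in lactating MG (against 42.1% of the 273 miRNAs of at least 100 summed reads) and 0 lower by Fisher's exact test, with a median log2 ratio of 0.93. mir-148a-3p led with 5060 RPM in lactating MG and 666 RPM in non-lactating MG, a ratio of 7.60 (7.45 to 7.76), whereas mir-29a-3p was lower. The smallest ratio of the 4 was that of mir-152-3p, 1.18 (1.14 to 1.22), which equals the median ratio of the 273. Its reads were 6961 in lactating MG and 7880 in non-lactating MG, so without scaling its direction turned to lower. The most abundant sequence held 46.9% of its isomiR reads in lactating MG and 33.2% in non-lactating MG. The 4 of 4 thus holds for the most abundant sequence scaled to clean reads. The calls of this list and of the lists below were not repeated by all isomiR reads. They were also not repeated with other scalings, which moved the median log2 ratio of the 273. Of 7 miRNAs linked to matrix and fibrosis (mir-21, mir-199a, mir-199b, mir-214, mir-192, mir-30c and mir-133a), 2 were called higher and 4 lower, with a median log2 ratio of -0.41, and 6 of the 7 had at least 100 summed reads. The shares over miRNAs of that depth were 42.1% higher and 31.9% lower. mir-199a-3p, which fibroblasts express, had 2100 RPM in lactating MG and 9968 RPM in non-lactating MG, a ratio of 0.211 (0.208 to 0.213). mir-133a-3p, a muscle miRNA of the same list, had a ratio of 20.2 (15.8 to 26.2) in the other direction.

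Marker miRNAs of the cell types that the tissue can hold are given with their calls, to be read against 42.1% called higher and 31.9% called lower among all miRNAs with at least 100 summed reads, and 17.4% and 10.9% among all tested. Of 7 epithelial markers (mir-200a, mir-200b, mir-200c, mir-141, mir-429, mir-375 and mir-205), 6 were called higher and 1 lower, all 7 with at least 100 summed reads. Their median log2 ratio was 2.53, with summed levels of 15169 RPM in lactating MG and 2797 RPM in non-lactating MG. The marker called lower was mir-205-5p, with 184 RPM in lactating MG and 693 RPM in non-lactating MG, a ratio of 0.266 (0.254 to 0.279). Of 5 stromal and smooth muscle markers (mir-199a, mir-199b, mir-214, mir-143 and mir-145), 2 were called higher and 2 lower, near the shares over all miRNAs of that depth (which 4 of the 5 had), with a median of 0.23 and sums of 8626 RPM in lactating MG and 14522 RPM in non-lactating MG. Of 5 striated muscle markers (mir-1, mir-133a, mir-133b, mir-206 and mir-499), 3 were called higher and 0 lower, those 3 being the ones with at least 100 summed reads, with a median of 1.79 and sums of 4494 RPM in lactating MG and 702 RPM in non-lactating MG.

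The endothelial marker mir-126-5p had 392 RPM in lactating MG and 120 RPM in non-lactating MG, a ratio of 3.27 (3.10 to 3.45), and was called higher. Its other arm, mir-126-3p, which was not counted, had 94.8 RPM in lactating MG and 44.8 RPM in non-lactating MG. A single arm of each miRNA in these lists was counted. Of 6 blood markers (mir-142, mir-150, mir-223, mir-451, mir-144 and mir-486), 2 were called higher and 1 lower, against 42.1% and 31.9% of miRNAs with at least 100 summed reads (which 4 of the 6 had), with a median of 0.15 and sums of 142 RPM in lactating MG and 122 RPM in non-lactating MG. mir-144-3p was listed at 0 in non-lactating MG, and it was the one marker of these lists at 0. The part of these cell types in the levels of mir-29a-3p, mir-29b-3p and mir-29c-3p was not tested. In bulk tissue, fewer cells of a type and fewer copies per cell cannot be told apart.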

How the data were processed

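The authors sequenced small RNA of both glands on an Illumina instrument, filtered out adaptors, reads of low quality and other classes of RNA, and aligned the clean reads to miRBase and the genome (ACGT-miR). Deposited are raw read counts per miRNA, made by the authors for the most abundant sequence and for all isomiRs, with the number of kinds. In the table of candidates the labelled order of the isomiR columns would put isomiR reads below those of the most abundant sequence in 484 miRNAs, so it was read in the other order, which leaves 4.

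RPM used the clean reads that the study gives per library. Ratios, exact intervals and Fisher's exact tests (threshold 0.05) were computed in Python 3.11.15 with numpy 2.4.6 and scipy 1.17.1, and figures with matplotlib 3.10.9. A listed 0 was set to 3 reads in ratios and kept as 0 in the tests and in intervals of shares. Scaling factors alone came from edgeR 4.0.16 and DESeq2 1.42.0 in R 4.3.3, since 1 library per group has no dispersion. The tests were tried on simulated Poisson counts with set folds. These hold no spread between animals and no PCR copies, so they check the computation and counting error alone. The members, lists and rules for named miRNAs (members, entries of their hairpins or seed, the 3 nearest of each member, and the lists) were chosen with earlier results of these data known. The part of isomiRs other than the most abundant was added after seeing the data. Alternatives were other scalings, all isomiR reads, other read minimums and Benjamini-Hochberg adjustment. Microarray and RT-PCR data were not used here.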

Additional observations from a re-analysis of the deposited data

How the results depend on the processing

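The median log2 ratio of the 273 miRNAs with at least 100 summed reads moved by 0.04 when reads were scaled to the sum of the listed reads, by -0.26 with TMM factors, by -0.28 with DESeq2 size factors, by -0.42 with no scaling, and by -0.10 when totals were raw reads. Under each of these scalings and by all isomiR reads, mir-29a-3p, mir-29b-3p, mir-29c-3p and the summed family kept their direction and passed Fisher's exact test. The ratio of mir-29c-3p was 1.17 with TMM factors and 1.05 without scaling. The isomiR reads other than the most abundant turned mir-29b-3p to 1.27. All isomiR reads turned the 5p arm of mir-29a from 0.834 to 2.56, and they made its 5p to 3p ratio pass at 5.75. Both rest on isomiR reads of this arm other than the most abundant sequence, which were counted in lactating MG alone. The 5p arm of mir-29b by RPM no longer passed with TMM (2.94), DESeq2 (2.90), no scaling (2.64) or raw reads as totals (3.29). Ratios between members kept their direction and call by all isomiR reads and by the other isomiRs. By all isomiR reads mir-29a-3p ranked 10 in lactating MG and 7 in non-lactating MG, and 1 of the 3 nearest miRNAs of mir-29c-3p was the same. Benjamini-Hochberg adjustment called 30.4% of all miRNAs higher in lactating MG. No paired analysis was possible because each group has 1 library. Depth limits the 5p arms, which had at most 48 reads of the most abundant sequence.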
